A study of Mus musculus with 8 samples.

Results

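Necdin (Ndn) and 7 further imprinted growth genes, Magel2, Igf2, Dlk1, Grb10, Plagl1, Peg3 and Mest, were followed in brown fat, whose cells oxidise lipid to warm the body. The 8 genes were picked by name, and with their log2 differences between the genotypes in these arrays already known. All 8 have a probe set of their own among the 21115 measured. The tissue came from 4 GRBATKO mice, in which the glucocorticoid receptor gene is inactivated in brown fat, and from 4 control mice, labelled wild type in the sample fields and Flox in the design text. Both groups are given as 16 to 20 weeks of age and spent 1 week at 5 °C, so every value below is from cold-exposed tissue and mice kept warm were not analysed here. No source used here names the driver that removed the receptor gene, and cells of the depot other than brown fat cells may keep it. RNA was hybridised to Affymetrix Mouse Gene 1.1 ST arrays, 1 array per mouse, and values are given as log2 of the deposited intensity, on which a difference of 1 is a doubling.

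Imprinted genes are read mainly from 1 parental copy, under the control of DNA methylation laid down in the egg or the sperm. Many copies inherited from the father favour growth, and many inherited from the mother restrain it. In fat, imprinted genes are known for acting on precursor cells: necdin and Dlk1 hold back the conversion of precursors into fat cells, Mest goes with enlargement of fat cells, and Igf2 and Grb10 act on either side of the insulin and insulin-like growth factor receptors. In mouse, Ndn, Magel2, Igf2, Dlk1, Plagl1, Peg3 and Mest are read from the paternal copy, and Grb10 is read from the maternal copy in most tissues and from the paternal copy in neurons.

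The 8 genes lie on 5 chromosomes, 4 of them on chromosome 7, where Ndn and Magel2 are neighbours. The windows around the start sites of Ndn, Magel2 and Peg3 are printed because the first pair shares a cluster and yet differed in sign between genotypes, and because Peg3 varied most between mice. They come from RefSeq on build GRCm38.p6, are 300 bases long, and have CpG pairs, the bases that carry the imprint's methylation, in capitals.
Ndn, chr7:62348027-62348326, plus strand: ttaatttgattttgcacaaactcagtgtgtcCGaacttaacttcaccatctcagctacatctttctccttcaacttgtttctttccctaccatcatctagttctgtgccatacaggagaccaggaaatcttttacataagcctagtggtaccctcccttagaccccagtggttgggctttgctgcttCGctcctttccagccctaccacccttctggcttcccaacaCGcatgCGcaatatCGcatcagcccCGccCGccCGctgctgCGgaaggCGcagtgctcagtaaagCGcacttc
Magel2, chr7:62376729-62377028, plus strand: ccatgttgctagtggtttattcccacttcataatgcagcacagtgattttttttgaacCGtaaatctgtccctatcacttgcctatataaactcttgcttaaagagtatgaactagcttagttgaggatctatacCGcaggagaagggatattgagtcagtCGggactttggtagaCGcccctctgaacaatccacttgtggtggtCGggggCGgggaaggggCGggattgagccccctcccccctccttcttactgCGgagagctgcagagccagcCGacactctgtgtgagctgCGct
Peg3, chr7:6730370-6730669, minus strand: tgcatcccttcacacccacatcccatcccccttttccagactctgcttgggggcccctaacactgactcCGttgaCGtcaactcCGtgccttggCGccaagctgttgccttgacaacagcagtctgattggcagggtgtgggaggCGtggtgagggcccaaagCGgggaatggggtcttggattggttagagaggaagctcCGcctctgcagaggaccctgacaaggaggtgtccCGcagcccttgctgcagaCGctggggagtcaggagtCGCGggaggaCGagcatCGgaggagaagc
The Ndn window holds 11 CpG pairs, the Magel2 window 10 and the Peg3 window 13, where the median of 32851 such windows is 7. Across all 8 genes the table lists 14 windows, since some genes have several start sites, with 2 to 45 CpG pairs, the highest in Grb10. The 6-base core of the glucocorticoid receptor site, AGAACA on either strand, was searched in the same windows. It stood in 1 of the 14, the most upstream Igf2 start site listed, while 19% of all windows hold it. The Igf2 window is shown with the match in capitals, which reads on the opposite strand.
Igf2, chr7:142666767-142667066, minus strand: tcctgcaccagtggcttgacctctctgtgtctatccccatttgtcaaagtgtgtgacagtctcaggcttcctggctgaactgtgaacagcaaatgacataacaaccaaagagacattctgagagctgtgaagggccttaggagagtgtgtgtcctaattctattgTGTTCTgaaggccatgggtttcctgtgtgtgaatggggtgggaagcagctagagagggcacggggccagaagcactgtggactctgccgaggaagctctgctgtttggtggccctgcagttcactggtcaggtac
A match of letters is a description of these windows and shows no binding, and the absence of one says nothing of the receptor elsewhere in the locus.

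The targeted gene, Nr3c1, was 7.61 to 7.83 in GRBATKO mice, against 8.51 to 8.68 in control mice (log2 difference -0.86, SE 0.08, limma adjusted p = 0.00697), which matches the labels. Ucp1, the uncoupling protein of brown fat, was 12.97 to 13.07 on all 8 arrays, and Adipoq was 10.63 to 10.81, as fits the tissue label. Peritoneal macrophages are named by the labels as the source in the RNA step, against the tissue field. Position codes in the labels put all GRBATKO arrays in rows C and D and all control arrays in rows A and B, and array row therefore cannot be told apart from genotype; columns 5 and 7 each held arrays of both. The lower quartile of log2 intensity was 3.03 in control 1 and 3.05 in control 4, and at most 2.90 elsewhere, a narrower spread in that pair. Skeletal muscle markers were high in GRBATKO 4 and in control 3, and lymphocyte markers in GRBATKO 2. Among all probe sets 5 passed an adjusted p of 0.05 in limma, 1 higher and 4 lower. How tissue was taken from each mouse is not in the labels, and the spread behind each p-value may hold technical variation as well as that between mice.

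Ndn encodes necdin, a protein of the MAGE family that binds E2F and p53 and restrains proliferation and differentiation in precursor cells and neurons. Its probe set, 17984_at, read 7.89, 7.90, 7.91 and 8.08 in the GRBATKO mice and 7.27, 7.42, 7.36 and 7.52 in the control mice. Every GRBATKO mouse lay above every control mouse, and 3 of the 4 GRBATKO values lay close together. The means were 7.94 ± 0.09 in GRBATKO mice and 7.39 ± 0.10 in control mice (SD, n = 4 each), a log2 difference of 0.55 (SE 0.08), or 1.47-fold. Ndn was the only one of the 8 genes whose groups did not overlap, where 5.64% of all probe sets did so, 3.22% on the higher and 2.42% on the lower side. None of the 8 passed limma's adjusted p of 0.05, where 0.0237% of all probe sets did (0.00474% higher, 0.0189% lower), and 1 of 8, Ndn, had an unadjusted p under 0.05, where 8.62% of all did. Ndn was past the adjusted threshold in 3 of 23 other settings of the fit, a variance prior that followed intensity, dim probe sets left out and a pseudocount of 8 before log2, and none of the other 7 genes was in any. These counts describe the values that led to the choice of the genes, so nothing is read from them, and no test is given for the difference of any of the 8. The Ndn difference was 0.58 within array column 5 and 0.52 within column 7, it was 0.51 to 0.60 when each mouse was left out in turn, and it was 0.56 without control 1 and control 4. In whole tissue, more cells that express a gene and more RNA per cell cannot be told apart.

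Magel2, a MAGE protein that works with a ubiquitin ligase in sorting of membrane proteins, is the next measured gene to Ndn. It read 3.78, 3.76, 3.19 and 3.47 in GRBATKO mice and 3.72, 3.54, 3.65 and 3.94 in control mice. The groups overlapped, with GRBATKO 3 the lowest mouse and control 4 the highest. The log2 difference was -0.16 (SE 0.14), on the opposite side of 0 from that of Ndn, and it was -0.04 without GRBATKO 3 and -0.08 without control 4. Magel2 is a dim probe set, with 40.2% of all probe sets dimmer, and no background level is known for these arrays.

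**Figure D1:**
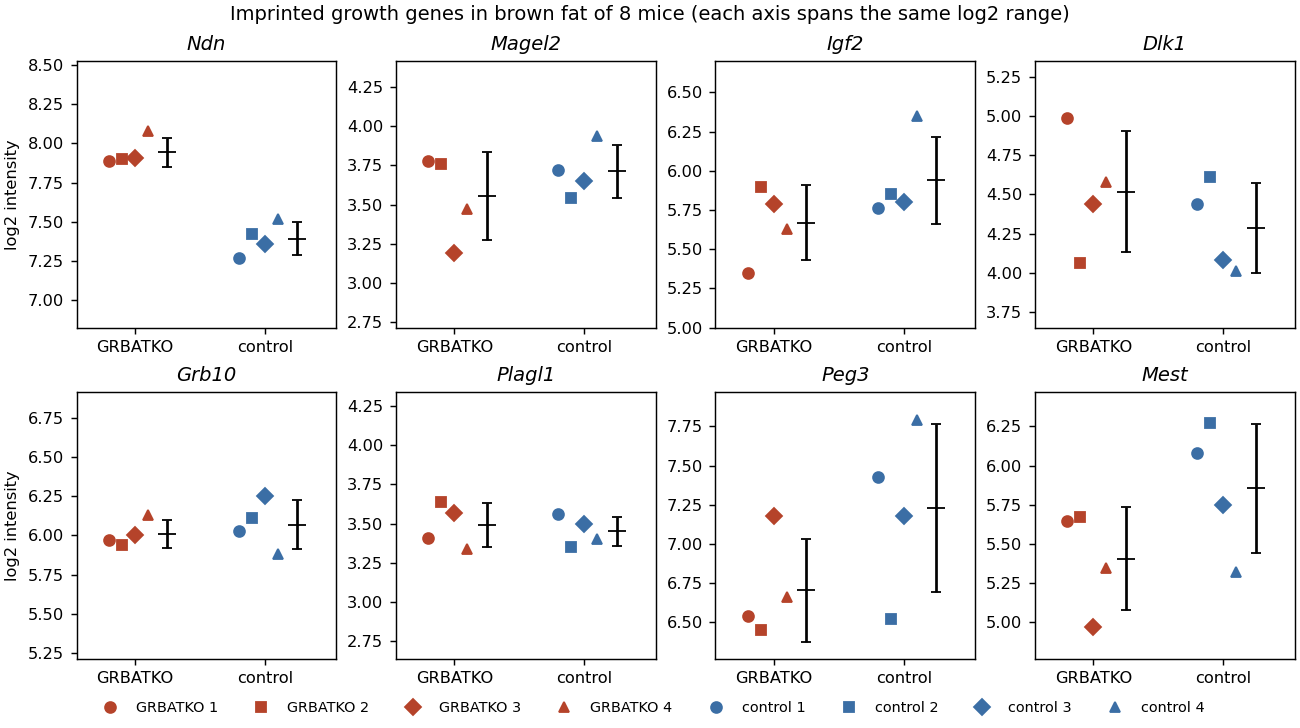
Log2 intensity of the 8 imprinted growth genes in each mouse, with GRBATKO on the left in red and control on the right in blue; marker shapes give the mouse number, and black bars are the mean and SD (n = 4). Each vertical axis spans the same log2 range around its gene. Ndn is the only panel in which the groups do not overlap, with 7.89 to 8.08 in GRBATKO mice above 7.27 to 7.52 in control mice.

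Igf2 and Dlk1 encode secreted or membrane-bound signals. Igf2, the insulin-like growth factor II that drives growth before birth, read 5.35, 5.90, 5.79 and 5.63 in GRBATKO mice and 5.76, 5.85, 5.80 and 6.35 in control mice. The groups overlapped, and control 4 stood above the other 7 mice. The log2 difference was -0.27 (SE 0.16), and without control 4 it was -0.13. Dlk1, or preadipocyte factor 1, is a Notch-like protein that precursors shed and that blocks fat cell formation. It read 4.99, 4.06, 4.44 and 4.58 in GRBATKO mice and 4.44, 4.61, 4.08 and 4.01 in control mice. Its range in GRBATKO mice covered nearly all of the control range, with GRBATKO 1 the highest mouse. The log2 difference was 0.23 (SE 0.20), and it fell to 0.07 without GRBATKO 1. It was 0.46 within array column 5 and 0.00 within column 7.

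Grb10, the adaptor that binds activated insulin and insulin-like growth factor receptors and dampens their signal, had means of 6.01 ± 0.09 in GRBATKO mice and 6.07 ± 0.16 in control mice (SD, n = 4 each). GRBATKO values, 5.94 to 6.13, lay inside the control range of 5.88 to 6.25. The log2 difference was -0.06 (SE 0.09). It was -0.16 within array column 5 and 0.04 within column 7, and without control 1 and control 4 it was -0.17.

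Plagl1 and Peg3 encode zinc finger proteins. Plagl1, or Zac1, acts on the transcription of other imprinted genes. It read 3.34 to 3.64 in GRBATKO mice and 3.35 to 3.56 in control mice, a log2 difference of 0.04 (SE 0.09). It was the 1 gene of the 8 below the 40th percentile of brightness, and its difference was -0.04 within array column 5 and 0.11 within column 7. Peg3, known for its part in cell survival, energy balance and maternal behaviour, read 6.54, 6.45, 7.18 and 6.66 in GRBATKO mice and 7.43, 6.52, 7.18 and 7.79 in control mice. GRBATKO 3 reached the level of control 3, and control 2 lay among the other GRBATKO mice, so the groups overlapped widely. The means were 6.71 ± 0.33 in GRBATKO mice and 7.23 ± 0.53 in control mice (SD, n = 4 each), and the log2 difference was -0.52 (SE 0.26). The 2 mice highest in Peg3 were control 4 and control 1, the arrays with the narrower spread of intensities; without both the difference was -0.14, and without control 2 it was -0.76. The part of that narrower spread in the Peg3 difference was not tested.

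Mest is an enzyme-like protein of the endoplasmic reticulum that rises in fat depots as they expand. It read 5.65, 5.67, 4.97 and 5.35 in GRBATKO mice and 6.08, 6.27, 5.75 and 5.32 in control mice. Of the control mice 3 lay above all GRBATKO mice, and control 4 lay below 3 of them. The means were 5.41 ± 0.33 in GRBATKO mice and 5.85 ± 0.41 in control mice (SD, n = 4 each), a log2 difference of -0.45 (SE 0.22). It was -0.62 without control 4, -0.30 without GRBATKO 3 and -0.31 without control 2, and it was -0.61 within array column 5 and -0.29 within column 7.

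Taking the 8 genes as a list, 3 had a higher mean and 5 a lower mean in GRBATKO mice, with a median log2 difference of -0.11, against -0.00 over all probe sets. Their sizes were far apart. The absolute difference of Ndn was larger than that of 99.0% of all probe sets, that of Peg3 than 98.8% and that of Mest than 98.1%, while those of Grb10 and Plagl1 were larger than 34.3% and 22.6%. The genes were picked with these differences known, so nothing is read from these ranks.

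The mouse-to-mouse spread within a genotype was not itself used to choose the genes, and it also differed between them. Genes that vary more between mice tend to show larger differences, so the spread is not free of that choice. The ranks below are a description. The pooled SD within groups was 0.44 for Peg3, larger than that of 99.1% of the 2430 probe sets within 0.5 log2 units of its brightness. For Mest the SD was 0.37, larger than 95.8% of its 2427 peers in brightness, and for Dlk1 and Igf2 it was 0.34 and 0.26, larger than 89.6% and 88.8%. Magel2 stood at 65.1%, Ndn at 46.1% with an SD of 0.10, Grb10 at 38.2% and Plagl1 at 11.6%. The differences of Ndn and Peg3 were thus alike in size, 0.55 and -0.52, while the SD of Peg3 was the larger of the pair.

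**Figure D2:**
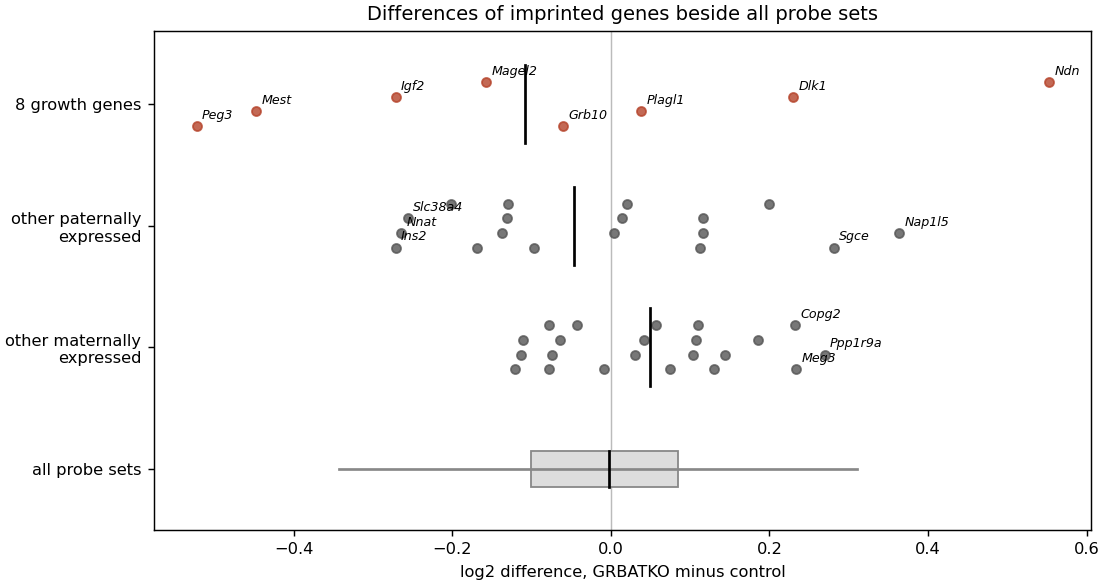
Log2 differences (GRBATKO minus control) of the 8 growth genes, of 18 other paternally and 22 other maternally expressed genes, and of all 21115 probe sets, where the box spans the central 50% and the line the central 95% of values. Vertical bars are medians. Ndn stands at 0.55, Mest at -0.45 and Peg3 at -0.52, outside the range of the other imprinted genes, -0.27 to 0.36. The 8 growth genes were picked with these differences known.

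The other genes of known imprinting were followed from a list of 50, of which 40 were measured. The arrays do not tell parental copies apart. Paternally and maternally expressed thus name what is known of each gene, not what was measured in this brown fat. None of the 40 passed limma's adjusted p of 0.05 in either direction (smallest adjusted p = 0.393). An unadjusted p under 0.05 was found for 3 of the 40, where 8.62% of all probe sets had one. Groups did not overlap in 2 of the 40, or 5.00%, a share near the 5.64% of all probe sets. Of 18 paternally expressed genes 9 had a higher and 9 a lower mean in GRBATKO mice, with a median log2 difference of -0.05. With dim probe sets left out, 9 of the 18 stayed, of which 7 had a higher mean, and the median was 0.12. Sgce, a sarcoglycan of the membrane complex around dystrophin, was 6.82 ± 0.10 in GRBATKO mice and 6.54 ± 0.06 in control mice (SD, n = 4 each; log2 difference 0.28, SE 0.08, limma adjusted p = 0.393), and its groups did not overlap. Ins2, an insulin gene, differed by -0.27 (SE 0.11), and Nap1l5 had the highest difference, 0.36. Of 22 maternally expressed genes 13 had a higher and 9 a lower mean, with a median of 0.05. Copg2, a coat protein subunit of vesicles in the Golgi whose gene lies beside Mest, was 8.04 ± 0.07 in GRBATKO mice and 7.81 ± 0.09 in control mice (log2 difference 0.23, SE 0.08, limma adjusted p = 0.475), again without overlap, and Ppp1r9a differed by 0.27 (SE 0.13).

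Plagl1 is known as the hub of a network of imprinted genes that are expressed together in growing tissue. Several of its 8 further measured members, Sgce, Meg3 and H19 among them, are also in the list of 40 above. None of them passed the threshold, and 1, Sgce, had an unadjusted p under 0.05, where 8.62% of all probe sets did. Groups did not overlap in Sgce and in Gnas, which was lower (log2 difference -0.09, SE 0.07), where 5.64% of all probe sets did not. Of the members 6 had a higher and 2 a lower mean in GRBATKO mice (median log2 difference 0.11, against -0.00 over all probe sets). Besides Sgce, the member of smallest p was Meg3, the maternally expressed RNA beside Dlk1, at 6.51 ± 0.20 in GRBATKO mice and 6.28 ± 0.15 in control mice (log2 difference 0.23, SE 0.11, limma adjusted p = 0.614). Dlk1 and Meg3, read from opposite parental copies, thus had the same log2 difference of 0.23, with overlapping groups in both.

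Genes next to each of the 8 on the chromosome were compared because imprinting acts on clusters. Order was taken from RefSeq (GRCm38.p6). Of 42 different neighbours, up to 3 measured genes on either side, none passed limma's adjusted p of 0.05 (smallest adjusted p = 0.475), and 6 had an unadjusted p under 0.05, where 8.62% of all probe sets did. Groups did not overlap in 4 of the 42, Atp10a, Utrn, Phactr2 and Copg2, all higher in GRBATKO mice, where 5.64% of all probe sets did not overlap and 3.22% on the higher side. Around Ndn, the imprinted genes Magel2, Mkrn3 and Peg12 on one side differed by -0.16 (SE 0.14), -0.13 (SE 0.08) and -0.20 (SE 0.13). On the other side the predicted gene Gm32061 differed by -0.23 (SE 0.12), Ube3a, the ubiquitin ligase silenced on the paternal copy in neurons, by 0.11 (SE 0.08), and Atp10a, a lipid flippase, by 0.33 (SE 0.11).

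Igf2 and its partner H19, the maternally expressed RNA that shares its enhancers, differed by -0.27 (SE 0.16) and -0.12 (SE 0.19). Around Peg3, Usp29, read from the same start region on the opposite strand, differed by -0.17 (SE 0.14), and the maternally expressed Zim1 by 0.19 (SE 0.15). Ddc and Cobl beside Grb10 differed by -0.10 (SE 0.12) and -0.03 (SE 0.11), Sf3b5 and Zc2hc1b beside Plagl1 by 0.17 (SE 0.10) and 0.05 (SE 0.07), and Begain and Cep41 beside Dlk1 and Mest by -0.08 (SE 0.11) and -0.06 (SE 0.13). Gm32061, Mkrn3, Peg12, Usp29, Ddc, Cobl, Zc2hc1b and Begain are dim probe sets, below the 40th percentile of brightness.

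**Figure D3:**
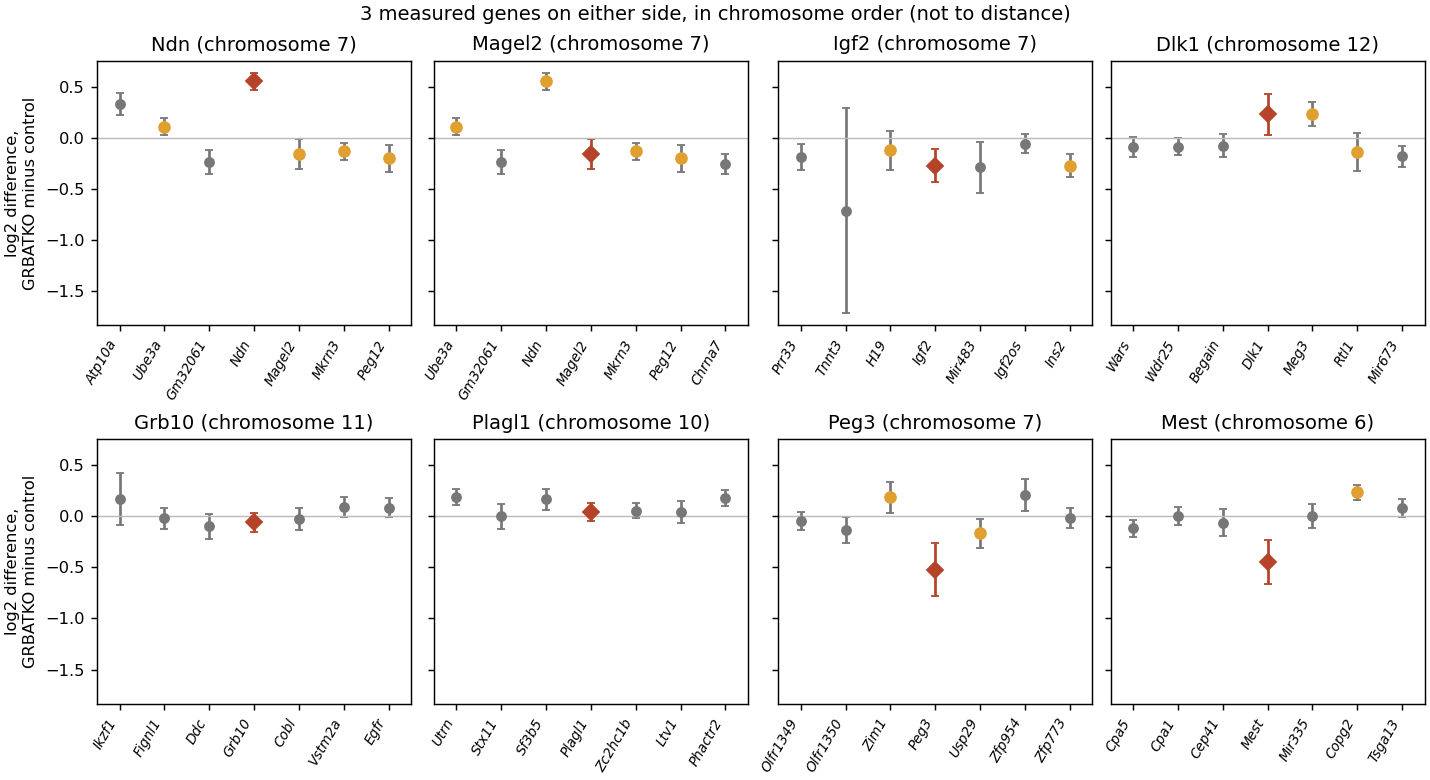
Log2 difference (GRBATKO minus control, with SE) of each growth gene, drawn as a red diamond, and of up to 3 measured genes on either side, drawn in chromosome order and not to distance; orange points are other genes from the imprinted lists and grey points all others. Ndn at 0.55 stands beside Magel2 at -0.16, and Mest at -0.45 beside Mir335 at -0.00.

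The microRNA genes Mir335 and Mir483 sit in introns of Mest and Igf2, and each has a probe set. No source used here says whether those probes read the mature microRNA. The mature sequences from RefSeq (GRCm38.p6) are printed with the seed, bases 2 to 8, in capitals. The seed is the part that pairs with targets, and the arms of each gene have different seeds. No targets were searched here.
mmu-miR-335-5p: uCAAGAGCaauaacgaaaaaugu
mmu-miR-335-3p: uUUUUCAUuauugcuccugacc
mmu-miR-483-5p: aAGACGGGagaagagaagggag
mmu-miR-483-3p: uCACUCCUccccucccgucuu
Mir335 read 3.98 to 4.12 in GRBATKO mice and 3.79 to 4.36 in control mice, a log2 difference of -0.00 (SE 0.12), beside -0.45 for Mest. Mir483 read at most 4.55 in GRBATKO mice, and 5.17 and 5.22 in control 1 and control 4 with the other control mice lower, a log2 difference of -0.29 (SE 0.25). Control 1 and control 4, the arrays of narrower spread, were its 2 high mice.

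Partners of the 8 genes were described from lists. Of 14 measured MAGE family members and partners of necdin none passed the threshold in limma and none had an unadjusted p under 0.05 (6 higher, 8 lower, median -0.00). Mageh1 and Maged1, MAGE proteins coded on the X chromosome in mouse, differed by 0.24 (SE 0.12) and 0.16 (SE 0.08). Of 19 measured E2F targets and cell cycle genes, which necdin is known to restrain through E2F, none passed and 6 had an unadjusted p under 0.05, where 8.62% of all probe sets did; 5 had a higher and 14 a lower mean (median -0.19). Its genes of smallest p were the cyclins Ccne2 (0.50, SE 0.17) and Ccne1 (0.31, SE 0.11), which lay on the higher side. Ccne2, at 2.07 to 3.24 over the 8 mice, is a dim probe set, below the 40th percentile of brightness. The other 4 with an unadjusted p under 0.05 were on the lower side, Rrm2 at -0.46, Kif11 at -0.44, Mcm5 at -0.46 and Mki67 at -0.50, and groups did not overlap in Ccne2 and Kif11. The list mean was highest in control 1, and without that mouse the median was -0.10.

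Of 21 measured genes of the insulin-like growth factor and insulin receptor axis none passed in limma (8 higher, 13 lower, median -0.04). An unadjusted p under 0.05 was found for 1 of the 21, where 8.62% of all probe sets had one. Irs1, which relays the signal of both receptors, was 7.55 ± 0.18 in GRBATKO mice and 7.20 ± 0.26 in control mice (SD, n = 4 each; log2 difference 0.35, SE 0.14, limma adjusted p = 0.562). Grb14, the relative of Grb10 with the same kind of action, was 8.37 ± 0.08 in GRBATKO mice and 8.11 ± 0.26 in control mice, a log2 difference of 0.27 (SE 0.12), with overlap in both genes. Of 18 Notch and precursor factors, the setting of Dlk1, none passed (8 higher, 10 lower, median -0.03). Among them 1 had an unadjusted p under 0.05, where 8.62% of all probe sets did. That gene was Ebf1, a transcription factor of early fat cell commitment, which read 9.61, 9.62, 9.64 and 9.66 in GRBATKO mice and 9.81, 9.92, 9.93 and 9.87 in control mice. Its groups did not overlap, and the log2 difference was -0.25 (SE 0.06, limma adjusted p = 0.350). Klf2 differed by 0.15 (SE 0.10). Of 8 Wnt pathway genes, in which Mest is known to act through the receptor Lrp6, none passed and none had an unadjusted p under 0.05 (5 higher, 3 lower, median 0.02), with Axin2 at -0.25 (SE 0.12) and Lrp6 at 0.16 (SE 0.09).

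Imprinted growth genes are strong in precursor cells, muscle precursors and neurons, so markers of cell types that a fat depot could hold were set beside them. No marker passed limma's adjusted p of 0.05 in any of the 8 lists. Of 14 stromal precursor markers 6 had a higher and 8 a lower mean in GRBATKO mice (median -0.02). Without control 1, 9 of the 14 were higher (median 0.06), as were 9 without GRBATKO 4 (median 0.07). The list mean is given in log2 units around the mean of all arrays. It ran from -0.20 to 0.21 in GRBATKO mice and from -0.09 to 0.03 in control mice. Lum differed by 0.25 (SE 0.12) and Pi16 by -0.35 (SE 0.18). Of 13 neuron markers 3 were higher and 10 lower (median -0.13), with list means of -0.14 to -0.02 in GRBATKO mice and -0.03 to 0.17 in control mice; Uchl1 differed by -0.37 (SE 0.11) and Stmn2 by -0.16 (SE 0.09). Of the 13 neuron markers 2 were above the 40th percentile of brightness.

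Of 19 skeletal muscle markers 2 were higher and 17 lower (median -0.57), but without control 3 the direction turned, with 14 of 19 higher and a median of 0.15, and within array column 7 the median was 0.45. Their list mean was 0.96 in GRBATKO 4 and -0.70 to -0.67 in the other GRBATKO mice, and 2.12 in control 3 and -0.60 to 0.01 in the other control mice. Ndn read 8.08 in GRBATKO 4 and 7.36 in control 3. The Ndn difference was 0.57 in a fit that also held the muscle list mean, and 0.57 in one that held the stromal list mean. The stromal list mean differed by only 0.03 between genotypes, so that fit could hardly move the Ndn difference. Nothing is read from either value. Myod1, the transcription factor of muscle precursors, differed by -0.23 (SE 0.11), and Mb, the oxygen store of muscle, by -1.44 (SE 0.32). Mb did not follow the muscle list from mouse to mouse. Its highest value was 8.83 in control 2, where the list mean was -0.60, and it read 8.12 in control 3. The Mb groups did not overlap. Of 12 genes in the brown adipocyte list, which also holds general fat cell genes, 10 were higher and 2 lower (median 0.03). Without control 4, 6 of the 12 were higher (median 0.01), and without control 1 and control 4 together, 5 (median -0.01). Lep, which encodes leptin and is not particular to brown fat, differed by 0.98 (SE 0.41), and Dio2 by -0.53 (SE 0.21). Endothelial markers had a median of -0.05 (2 of 8 higher; Tie1 -0.14, SE 0.07; Pecam1 -0.07, SE 0.07), macrophage markers 0.04 (6 of 9 higher; Fcgr1 -0.32, SE 0.20; Csf1r -0.11, SE 0.14), Schwann cell markers 0.09 (4 of 5 higher; Pmp22 0.22, SE 0.10; Mag -0.26, SE 0.17) and lymphocyte markers 0.19 (9 of 10 higher; Nkg7 0.15, SE 0.13; Cd79b 0.44, SE 0.39). Lymphocyte markers were high in GRBATKO 2, with a list mean of 1.09, against -0.28 to 0.05 in the other 7 mice, and without GRBATKO 2 the direction turned, with 1 of 10 lymphocyte markers higher and a median of -0.12. Macrophage markers turned likewise without control 4, with 1 of 9 higher and a median of -0.08, and without GRBATKO 3, with 1 of 9 higher and a median of -0.07. Without GRBATKO 2, 2 of 9 macrophage markers were higher (median -0.04), 2 of 5 Schwann cell markers (median -0.02) and 5 of 8 endothelial markers (median 0.02). Myod1, Fcgr1, Mag and Nkg7 are dim probe sets, below the 40th percentile of brightness. The part of these cell types in the values of the 8 genes was not tested.

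**Figure D4:**
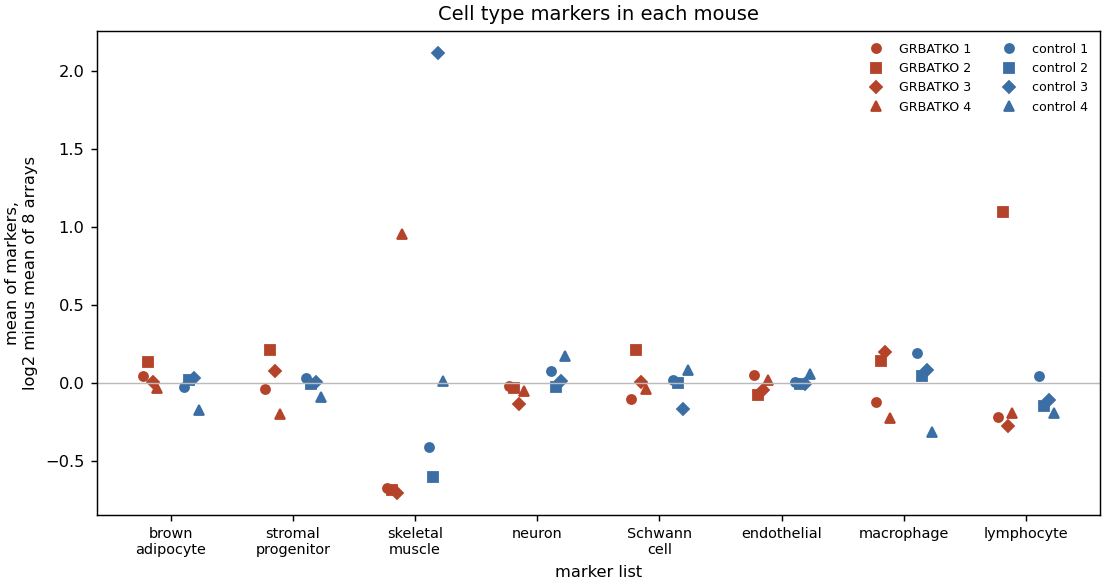
Mean of each cell type's markers in each mouse, in log2 units around the mean of the 8 arrays, with GRBATKO in red on the left and control in blue on the right of each list, and marker shapes for the mouse number. Muscle markers are high in GRBATKO 4 (0.96) and control 3 (2.12), and lymphocyte markers in GRBATKO 2 (1.09).

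Whether the 8 genes moved together from mouse to mouse within a genotype was asked with values centred on each genotype's mean, over all 28 pairs and 8 arrays. No pair passed a two-sided exact permutation test within genotypes after Benjamini-Hochberg adjustment over the 28 pairs (smallest adjusted p = 0.438), and 2 pairs had an unadjusted p under 0.05. The smallest p that the 576 arrangements allow is 0.00174. Signs were mixed, with 11 positive and 17 negative pairs.

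The 3 strongest relations were negative. Peg3 and Mest gave Pearson r = -0.86 (exact permutation p = 0.0191, adjusted p = 0.438) and Spearman rho = -0.90 (exact permutation p = 0.0156, adjusted p = 0.438), and r was -0.71 without control 2 and control 4, the mice farthest from the median of Peg3. In plain values, control 4 was the highest mouse in Peg3 and the lowest control in Mest, and GRBATKO 3 was the highest GRBATKO mouse in Peg3 and the lowest in Mest. Igf2 and Dlk1 gave r = -0.78 (exact permutation p = 0.0312, adjusted p = 0.438) and rho = -0.79 (exact permutation p = 0.0451, adjusted p = 0.632), and r was -0.60 without GRBATKO 2 and control 4. Ndn and Plagl1 gave r = -0.70 (exact permutation p = 0.0677, adjusted p = 0.632) and rho = -0.67 (exact permutation p = 0.111, adjusted p = 0.778), and r was -0.55 without GRBATKO 4 and control 4. Between Ndn and its neighbour Magel2 r was 0.05 (exact permutation p = 0.925, adjusted p = 0.988), with rho = -0.33 (exact permutation p = 0.479, adjusted p = 0.959).

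**Figure D5:**
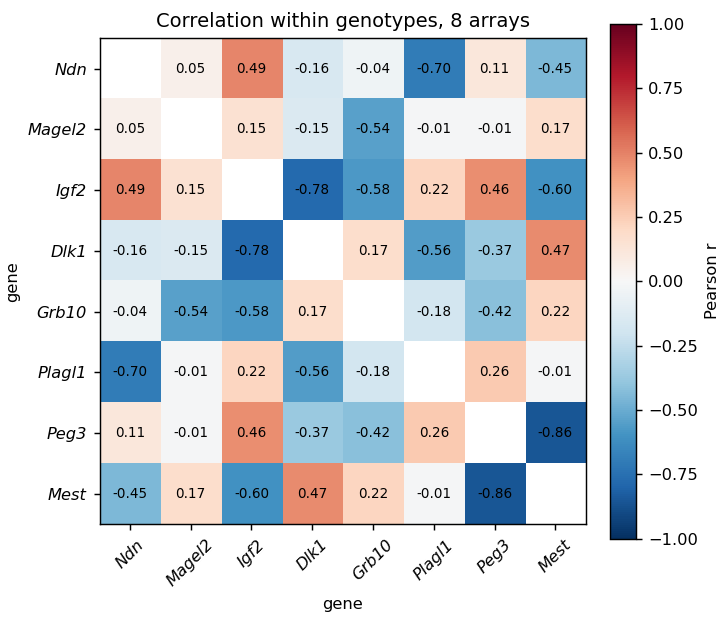
Pearson correlation of each pair of the 8 genes over 8 arrays after centring on the genotype mean, from -1 in blue to 1 in red. Peg3 with Mest (-0.86) and Igf2 with Dlk1 (-0.78) are the strongest, and no pair passed after adjustment over 28 pairs.

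The genes whose pattern over the 8 arrays was most like that of Ndn, after centring on each genotype's mean, were Med14, Pik3r2, Ube2e1, Plcd3 and Pld6, with Pearson r of 0.98, 0.97, 0.96, 0.95 and 0.95 among 10194 named probe sets at or above the median brightness. The values are a ranking over few arrays and carry no test. In each of the 5, as in Ndn, GRBATKO 4 was the highest GRBATKO mouse, control 4 the highest control mouse and control 1 the lowest. Their differences between genotypes were small beside the 0.55 of Ndn: -0.11 for Med14, a subunit of the Mediator complex, 0.10 for Pik3r2, a regulatory subunit of phosphoinositide 3-kinase, 0.06 for Ube2e1, a ubiquitin-conjugating enzyme, 0.10 for Plcd3, a phospholipase, and 0.12 for Pld6, a mitochondrial phospholipase, each with overlapping groups.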

How the data were processed

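Brown fat RNA of 4 GRBATKO and 4 control mice was measured on 1 array each. The authors summarised the arrays with RMA, per the submitters' processing notes (version not given in the sources used here), and the deposited table holds 1 linear intensity per probe set and array, read as linear because values ran from 2.07 to 9168; log2 was taken here. Precision is limited by how few arrays there are. The platform annotation gave 1 gene symbol for 20405 probe sets, several for none and none for the other 710; all 20405 gene numbers were found in RefSeq (GRCm38.p6). Groups were taken from sample titles.

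The genotype comparison used lmFit and eBayes of limma 3.58.1 under R 4.3.3 (genotype the only term, 6 residual degrees of freedom) over all 21115 probe sets, with Benjamini-Hochberg adjustment and a threshold of 0.05. Pairs of genes were tested by exact permutation within genotypes. The fit and the pair test were tested on simulated data. Same-numbered arrays of the 2 genotypes did not deviate together (correlations -0.06 to 0.09), so no block was used.

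The genes and lists were chosen with earlier results of these data known. Named were the 8 genes, Nr3c1, their nearest measured neighbours, per list up to 4 genes past the threshold or otherwise the 2 of smallest p, the 5 genes most like Ndn and the 3 strongest pairs. Nap1l5, Gnas, Mcm5, Mki67, Rrm2, Kif11, Ucp1, Adipoq and neighbours farther than the nearest were named after their values were seen. The closing section gives the effect of other priors, weights, scalings, filters, blocks, covariates and left-out arrays. Figures were drawn with matplotlib 3.10.9.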

Additional observations from a re-analysis of the deposited data

Results flagged for a closer look

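Among 116 groups of 4 mice, for the 8 genes and the other genes named, 7 had 1 mouse far from the other 3 by Dixon's test, a share of 6.03%, where chance gives about 5%. Of the 16 groups of the 8 genes 2 were among them. Ndn was 8.08 in GRBATKO 4, against 7.89 to 7.91 in the other GRBATKO mice. Control 4 read 6.35 for Igf2, where the remaining control mice read 5.76 to 5.85. Of the genes most like Ndn, Pik3r2 was 6.09, Plcd3 was 5.47 and Pld6 was 5.91 in GRBATKO 4, against 5.89 to 5.92, 5.24 to 5.28 and 5.64 to 5.67 in the other GRBATKO mice; they were chosen for following Ndn, so they are not separate cases. Among lymphocyte markers, Cd79b was 5.73 in GRBATKO 2, against 3.80 to 4.03, and Nkg7 was 3.31 in GRBATKO 3, against 3.78 to 3.87 in the other GRBATKO mice.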

How the results depend on the processing

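The limma count of 5 probe sets past the threshold became 30 when the variance prior followed intensity, 8 after repeated quantile normalization, 14 with dim probe sets left out, 12 with a pseudocount of 8, 3 without control 1 and control 4, and 2 without control 3 and GRBATKO 4; leaving out each mouse gave 3 to 5. Within array column 5 it was 0 and within column 7 it was 1, settings added after the data were seen. With a replicate block it was 1; the shared numbers do not pair the mice. The other imprinted genes past the threshold numbered 0 and the gene pairs past theirs 0 in every setting tried. Of the 8 genes Ndn changed sides of the threshold, passing it in 3 of 23 settings (intensity prior, dim probe sets left out, pseudocount). The 8 genes were picked with their differences known, so nothing is read from that count. For the 8 genes each difference moved by less than the SD within groups. The sign held in all settings for Ndn (0.49 to 0.60), Magel2, Igf2, Dlk1, Peg3 and Mest. Dlk1 came as near 0 as 0.00 within array column 7, and Magel2 as near as -0.04 without GRBATKO 3. Grb10 ran from -0.17 to 0.04 and Plagl1 from -0.04 to 0.11. The median of a list kept its sign in all settings for the maternally expressed genes, the Plagl1 network, the Notch, E2F and neuron lists, and turned in at least 1 for the rest. Dim probe sets, Plagl1 among them, have no known distance from background. Among the genes named outside the 8, Nr3c1 alone changed sides, in 6 settings, with the same sign throughout; the cause was not tested.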
